A study of Mus musculus with 32 samples.

Results

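RNA sequencing compared wild-type (WT) mouse dendritic cells after 6 h of lipopolysaccharide (LPS) with WT cells after 2 h. The 4 libraries at 6 h and the 4 at 2 h were taken from the labels and made up 8 of the 32 libraries of the series. Both groups were C57BL/6 cells with no gene deleted, grown from femur and tibia marrow in GM-CSF and given LPS at 1 µg/mL on day 9, the day of harvest. The WT libraries at 0 h and 1 h of LPS, 4 each, placed the step within the whole response. Cells of Lmp7-/-Mecl1-/- (dKO) C57BL/6 mice, which lack 2 immunoproteasome subunits and were grown and treated the same way, served as a second genotype. GM-CSF cultures of marrow are mixed and also hold macrophages and granulocytes, and the labels give no sort. Of 22216 genes in the deposited tables, 9835 reached 1 RPKM (reads scaled to gene length and library size) in at least 4 of the 8 libraries and were tested; 250 of them passed through the 6 h libraries alone and 232 through the 2 h libraries alone.

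LPS is sensed by TLR4 with its helpers CD14 and MD-2. One arm of signalling runs through MyD88 to NF-kappaB and the MAP kinases and starts cytokine, chemokine and immediate early genes, the other runs through TRIF to IRF3 and starts the interferon beta gene. Secreted interferon then acts back on the cells through its receptor and JAK kinases, and turns on a second tier of genes whose control regions carry the interferon-stimulated response element (ISRE). Feedback inhibitors of NF-kappaB and proteins that destroy cytokine mRNA are themselves induced and limit the early tier. In dendritic cells the later hours also bring maturation: costimulatory proteins, the lymph node homing receptor CCR7 and antigen presentation rise while uptake receptors fall.

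Aligned sequence came to 1.48 to 1.68 Gb per library at 6 h and 1.32 to 1.68 Gb at 2 h, and 9581 to 9623 genes reached 1 RPKM at 6 h against 9465 to 9562 at 2 h. The 10 genes with the most aligned bases took 10.4% to 11.7% of all aligned bases at 6 h and 8.48% to 8.69% at 2 h. All 16 WT libraries correlated best with the WT mean of their own labelled time, while 5 of the 16 dKO libraries did not. Dendritic cell markers summed to 11800 to 13700 RPKM at 6 h and 11900 to 13100 RPKM at 2 h, mostly through Cd74 and H2-Ab1. Within that sum Itgax averaged 205 RPKM at 6 h against 379 RPKM at 2 h, and Ccr7 1334 RPKM against 450 RPKM. Macrophage markers summed to 654 to 881 RPKM at 6 h against 1770 to 2080 RPKM at 2 h, and neutrophil markers to 411 to 627 RPKM at 6 h against 904 to 1170 RPKM at 2 h. In the macrophage list Cd14 had the highest mean at both times, 229 RPKM at 6 h and 810 RPKM at 2 h, against 79.4 RPKM at 0 h. Emr1 was the 1 macrophage marker not called, at 61.7 RPKM at 6 h and 69.0 RPKM at 2 h (limma adjusted p = 0.182). Plasmacytoid dendritic cell markers summed to 527 to 613 RPKM at 6 h against 227 to 254 RPKM at 2 h, mostly through Bst2, with Siglech under 1 RPKM. Eosinophil, mast cell and basophil markers summed to 511 to 894 RPKM at 6 h against 731 to 1250 RPKM at 2 h, and NK cell markers to 0.623 to 1.23 RPKM at 6 h against 0.733 to 1.65 RPKM at 2 h. B cell markers summed to 1.34 to 2.32 RPKM at 6 h against 0.495 to 1.51 RPKM at 2 h. Markers of T cells, fibroblasts and red cells stayed below 2 RPKM in sum in every library, with Cd3e and Hba-a1 listed at 0. In bulk RNA, fewer cells of a type cannot be told apart from less RNA per cell. The labels do not say that replicates came from separate animals or cultures, so the p-values rest on differences among these libraries that may be technical.

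Promoter sequences are shown for 8 genes that stand for the patterns described here: 3 genes raised at 2 h and lower at 6 h, 3 genes of the interferon response that were held or rose further, and 2 whose promoter holds both kinds of motif. Sequences are the bases upstream of the RefSeq gene start in GRCm38.p6, 5′ to 3′ along the gene, running from 20 bases before the first motif to the gene start. Capitals mark matches, on either strand, to the NF-kappaB-type motif (GGGAA, any 3 bases, then CC) or to the ISRE-type motif (GAAA, any 2 bases, then GAAA); adjacent matches merge. The positions are chr4:88522795-88522930, minus strand, for Ifnb1; chr5:90903782-90903898, plus strand, for Cxcl2; chr5:90891135-90891244, plus strand, for Cxcl1; chr4:156200819-156200916, minus strand, for Isg15. They are chr19:34583353-34583528, plus strand, for Ifit3; chr3:142620584-142620662, plus strand, for Gbp2; chr5:92348890-92349122, minus strand, for Cxcl10; chr2:122147528-122147686, plus strand, for B2m.
Ifnb1: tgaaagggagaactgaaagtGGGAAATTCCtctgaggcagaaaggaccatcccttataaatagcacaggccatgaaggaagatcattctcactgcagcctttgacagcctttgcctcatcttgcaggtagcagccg
Cxcl2: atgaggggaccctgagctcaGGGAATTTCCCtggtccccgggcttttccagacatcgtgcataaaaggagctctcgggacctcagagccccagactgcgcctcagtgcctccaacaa
Cxcl1: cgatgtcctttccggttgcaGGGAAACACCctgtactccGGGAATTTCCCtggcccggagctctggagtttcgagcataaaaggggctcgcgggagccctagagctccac
Isg15: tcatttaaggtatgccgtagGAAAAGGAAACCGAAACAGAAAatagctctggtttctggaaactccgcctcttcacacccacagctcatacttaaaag
Ifit3: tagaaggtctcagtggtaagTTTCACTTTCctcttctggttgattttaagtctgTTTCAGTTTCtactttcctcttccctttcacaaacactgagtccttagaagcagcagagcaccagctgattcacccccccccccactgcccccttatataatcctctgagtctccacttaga
Gbp2: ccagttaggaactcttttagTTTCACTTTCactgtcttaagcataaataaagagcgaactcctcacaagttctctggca
Cxcl10: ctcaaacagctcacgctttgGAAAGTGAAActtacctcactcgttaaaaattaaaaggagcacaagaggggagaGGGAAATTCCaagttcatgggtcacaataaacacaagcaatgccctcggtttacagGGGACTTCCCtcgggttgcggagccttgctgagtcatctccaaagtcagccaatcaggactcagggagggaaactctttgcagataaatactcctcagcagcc
B2m: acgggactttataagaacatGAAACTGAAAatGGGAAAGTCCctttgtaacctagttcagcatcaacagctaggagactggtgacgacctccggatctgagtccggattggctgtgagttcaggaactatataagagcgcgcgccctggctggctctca

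Within 250 bases upstream, 2.98% of the 32851 promoters in the RefSeq table held the ISRE-type motif and 4.94% the NF-kappaB-type motif. A promoter was found for 7925 of the 9835 tested genes. The ISRE-type motif was in 9 of the 11 promoters of guanylate binding proteins and immunity GTPases (81.8%) and in 8 of the 25 of antiviral interferon-stimulated genes (32.0%). The NF-kappaB-type motif was in 5 of the 12 chemokine promoters (41.7%). By pattern, the NF-kappaB-type motif was in 8.62% of resolving, 11.8% of sustained and 14.1% of rising-further promoters, and the ISRE-type motif in 6.32%, 8.94% and 11.8% of them, against 6.07% and 3.03% over the promoters of all tested genes. A match describes letters in this window and shows no binding.

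Of the 9835 genes, 7684 (78.1%) passed the test, 4432 (45.1%) higher and 3252 (33.1%) lower at 6 h than at 2 h (limma on log2(RPKM + 0.5), adjusted p below 0.05). In the fit over all 32 libraries, whose spread takes in dKO libraries that went against their labels, 4856 (49.4%) passed. A difference of 2-fold or more was called for 1004 genes higher (10.2%) and 886 lower (9.01%), and one of 4-fold or more for 63 higher and 126 lower. The 4 values at 6 h did not overlap the 4 at 2 h for 6880 genes (70.0%), so passing the test was the usual case. Over all genes the median log2 change was 0.108, and 0.0214 after median-of-ratios scaling of the libraries. Log2 changes are given with their SE and understate the change of genes at low RPKM, because of the 0.5 added.

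Each gene was placed by its changes from 0 h to 1 h, from 0 h to 2 h, from 2 h to 6 h and from 0 h to 6 h, with a step counted where it was called and at least 2-fold. Of the 705 genes raised at 2 h (7.17%), 160 resolved, which means that they fell again by 2-fold or more by 6 h. Another 238 were sustained, with a change under 0.5 log2 and still raised 2-fold or more at 6 h, and 96 rose further. Over all genes 9.46% were called 2-fold or more above 0 h at 6 h and 30.7% below. Of the 3185 genes lowered at 2 h (32.4%), 503 recovered, 973 stayed low and 237 fell further. Another 171 genes that were flat, within 0.5 log2 of 0 h at both 1 h and 2 h, first rose late and 173 first fell late. The steps to 2 h and from 2 h use the same 2 h libraries, so an error in these enters both, and no test is given over a pattern. The counts depend on how libraries are scaled: as deposited the median gene changed by -0.675 log2 between 0 h and 2 h, after median-of-ratios scaling by 0.0549. With that scaling 288 genes resolved, 529 were sustained, 146 rose further and 191 first rose late, while 251 recovered, 174 stayed low, 54 fell further and 482 first fell late. All 160 resolving genes kept their pattern under that scaling, as did 225 of the sustained genes and 87 of those rising further, but 62 of the late risers, 248 of the recovering, 151 of the low, 47 of the falling further and 73 of the late fallers did. That scaling shifts changes to 2 h up and changes from 2 h to 6 h down. Resolving genes could therefore hardly leave their pattern under it. After quantile normalization 145 resolving, 223 sustained and 80 rising-further genes kept theirs. In the fit over all 32 libraries 121 of the resolving genes did.

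**Figure D1:**
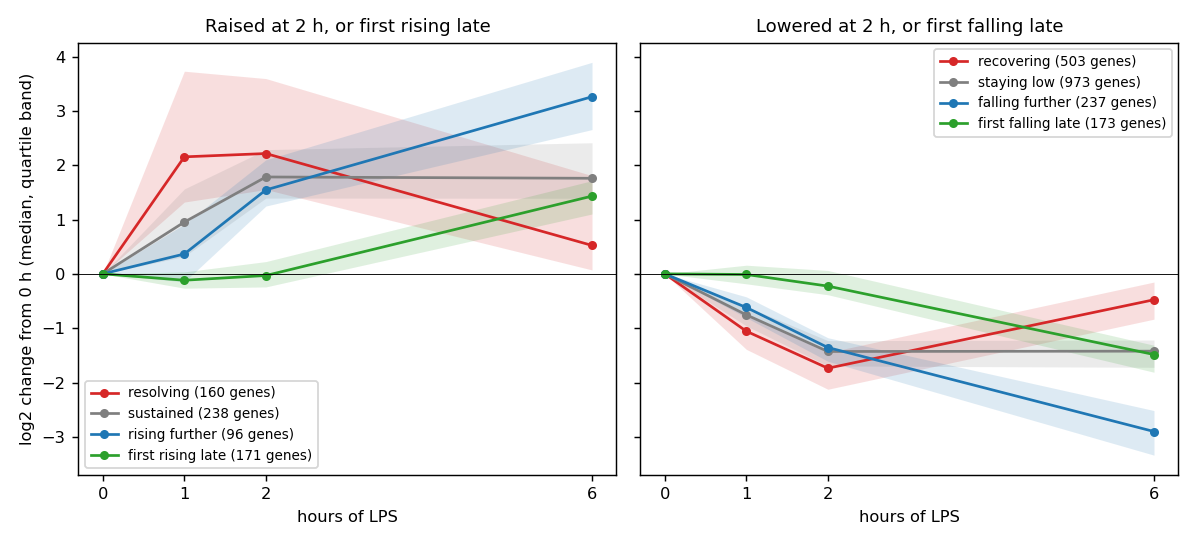
Median log2 change from 0 h (line, with the quartiles as a band) at 1, 2 and 6 h of LPS for the genes of each pattern, raised patterns on the left and lowered patterns on the right, WT libraries as deposited. The resolving median drops to 0.523 at 6 h, against 2.21 at 2 h, while the median of genes rising further reaches 3.26 at 6 h.

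A grouping was made by the change from 0 h to 1 h, whose means use no library of the step. The grouping is not independent of the step. Its filter used the 2 h and 6 h libraries, and so did the spread behind its calls. A gene lowered at 1 h and under 1 RPKM in all 2 h libraries entered only through its 6 h values. The filter left out 1138 genes with a 0 h mean of 1 RPKM or more. Of the 427 genes raised 2-fold or more at 1 h (4.34%), 90 were higher and 270 lower at 6 h than at 2 h (21.1% and 63.2%), with a median log2 change of -0.587. Among the 180 raised 4-fold or more the median was -1.04, with 134 lower (74.4%). Among the 88 raised 8-fold or more it was -1.27, with 71 lower and 8 higher (80.7% and 9.09%). Of the 1015 genes lowered 2-fold or more at 1 h (10.3%), 788 were higher and 92 lower at 6 h than at 2 h, with a median of 0.717. The 5160 genes within 0.5 log2 of the 0 h level at 1 h held 1989 higher and 1928 lower (38.5% and 37.4%). The grouping was made from libraries as deposited and was not repeated under another scaling. At 2 h, 3185 genes were lowered 2-fold or more as deposited and 915 after median-of-ratios scaling.

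The 12 named genes with the lowest log2 changes included 3 interferon genes, 2 growth factor genes and the coagulation gene F3. Ifnb1, which encodes interferon beta (mm9 chromosome 4, 88167929 to 88168698), measured 13.4, 23.5, 19.5 and 11.3 RPKM at 6 h, against 772, 872, 719.5 and 633 RPKM at 2 h, in the order of replicates 1 to 4. The 2 groups lay far apart, and the log2 change was -5.47 ± 0.17 (limma adjusted p = 1.79e-14). A share of 2.21% of the 2 h rise above 0 h was left at 6 h. Ifna4, an interferon alpha gene, measured 1.42, 1.31, 0.629 and 1.38 RPKM at 6 h, against 34.9, 34.9, 26.1 and 36.5 RPKM at 2 h, and Ifna2, Ifna1 and Ifna5 changed by -3.61 ± 0.12, -2.75 ± 0.19 and -2.72 ± 0.18 log2, all passing the test. Ifna1 and Ifna2 were under 1 RPKM in all 6 h libraries and passed the filter through the 2 h libraries alone. Interferon alpha genes are near-identical copies that can share reads, so the level of each one is uncertain.

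Areg and Ereg, which encode the EGF receptor ligands amphiregulin and epiregulin, were back near their 0 h level. Areg measured 0.602, 0.549, 0.366 and 0.526 RPKM at 6 h, against 29.3, 38.0, 36.1 and 35.7 RPKM at 2 h, which gave -5.12 ± 0.14 (limma adjusted p = 4.79e-15) on the log2 scale, and 0.811% of its rise was left. Ereg changed by -3.95 ± 0.12 and had 1.90% left. C5ar1, the receptor for complement C5a, measured 2.24, 2.46, 2.75 and 2.97 RPKM at 6 h, against 63.5, 65.4, 53.7 and 58.6 RPKM at 2 h, a change of -4.29 ± 0.092 (limma adjusted p = 2.63e-16); its 6 h mean of 2.61 RPKM was also below the 0 h mean of 11.2 RPKM. Serpinb2, plasminogen activator inhibitor 2, and F3, tissue factor that starts coagulation, changed by -3.99 ± 0.11 and -3.42 ± 0.18. Rnd1, a small GTPase, and Spry1, an inhibitor of growth factor signalling, changed by -3.02 ± 0.11 and -3.08 ± 0.097. Il2, the T cell growth factor, had 0, 0.486, 0.107 and 0.127 RPKM at 6 h, against 6.44, 5.34, 5.30 and 5.34 RPKM at 2 h, so that its levels at 6 h were near the limit of measurement. The Il2 change was -3.21 ± 0.21 (limma adjusted p = 2.21e-10). Areg, Ereg and Il2 were under 1 RPKM in all 6 h libraries and passed the filter through the 2 h libraries alone.

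Several inflammatory cytokine and chemokine genes fell and were still above 0 h at 6 h. Tnf (mm9 chromosome 17, 35336336 to 35338941) measured 572, 677, 553 and 489 RPKM at 6 h, against 3355, 3845, 3146 and 3177 RPKM at 2 h, with all 6 h libraries below all 2 h libraries. Its log2 change was -2.56 ± 0.094 (limma adjusted p = 1.06e-13), and 16.4% of the rise was left at 6 h, at 573 ± 78.1 RPKM against 22.4 RPKM at 0 h (SD, n = 4). Ccl4, an inflammatory chemokine, measured 948, 1127, 907 and 825 RPKM at 6 h, against 7302, 7558, 6419 and 6441 RPKM at 2 h, a change of -2.87 ± 0.10 (limma adjusted p = 6.17e-14), and Ccl3, its neighbour, changed by -2.02 ± 0.11. The neutrophil chemokines Cxcl2 and Cxcl1, both with NF-kappaB-type matches upstream, changed by -2.78 ± 0.14 and -2.35 ± 0.20, the monocyte chemokines Ccl2, Ccl7 and Ccl12 by -2 ± 0.14, -1.98 ± 0.12 and -2.40 ± 0.098, all passing the test. Il1b measured 1843, 2051, 1624 and 1642 RPKM at 6 h, against 4188, 4602, 3664 and 4343 RPKM at 2 h, a change of -1.23 ± 0.15 (limma adjusted p = 5.09e-07) that left 41.6% of its rise. Il1a and Il23a, the p19 subunit of interleukin-23, changed by -1.48 ± 0.11 and -1.27 ± 0.10 and kept 35.7% and 41.4% of their rise.

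Counts over lists are to be read against 45.1% higher and 33.1% lower over all tested genes. Of 19 tested cytokines, 12 were lower and 5 higher at 6 h, with a median log2 change of -0.755, and of 18 chemokines 11 were lower and 5 higher, with a median of -0.953, against 0.108 for all genes. Il6 and Cxcl10 fell by less than 2-fold: Il6 measured 754, 853, 744 and 666 RPKM at 6 h, against 1499, 1570, 1308 and 1396 RPKM at 2 h. Cxcl10, a chemokine for CXCR3 with both motifs upstream, measured 1703, 1866, 1664 and 1533 RPKM at 6 h, against 3464, 3308, 3125 and 3296 RPKM at 2 h. For both genes the 4 values at 6 h did not overlap the 4 at 2 h, and the changes were -0.94 ± 0.12 (limma adjusted p = 1.27e-06) and -0.97 ± 0.069 (limma adjusted p = 6.21e-10). In the fit over all 32 libraries the log2 changes were the same but Tnf, Ccl4, Ccl3, Ccl2, Ccl7, Cxcl1, Il1b, Il1a, Il23a, Il6 and Cxcl10 were no longer called (adjusted p from 0.0611 for Ccl4 to 0.628 for Il6).

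**Figure D2:**
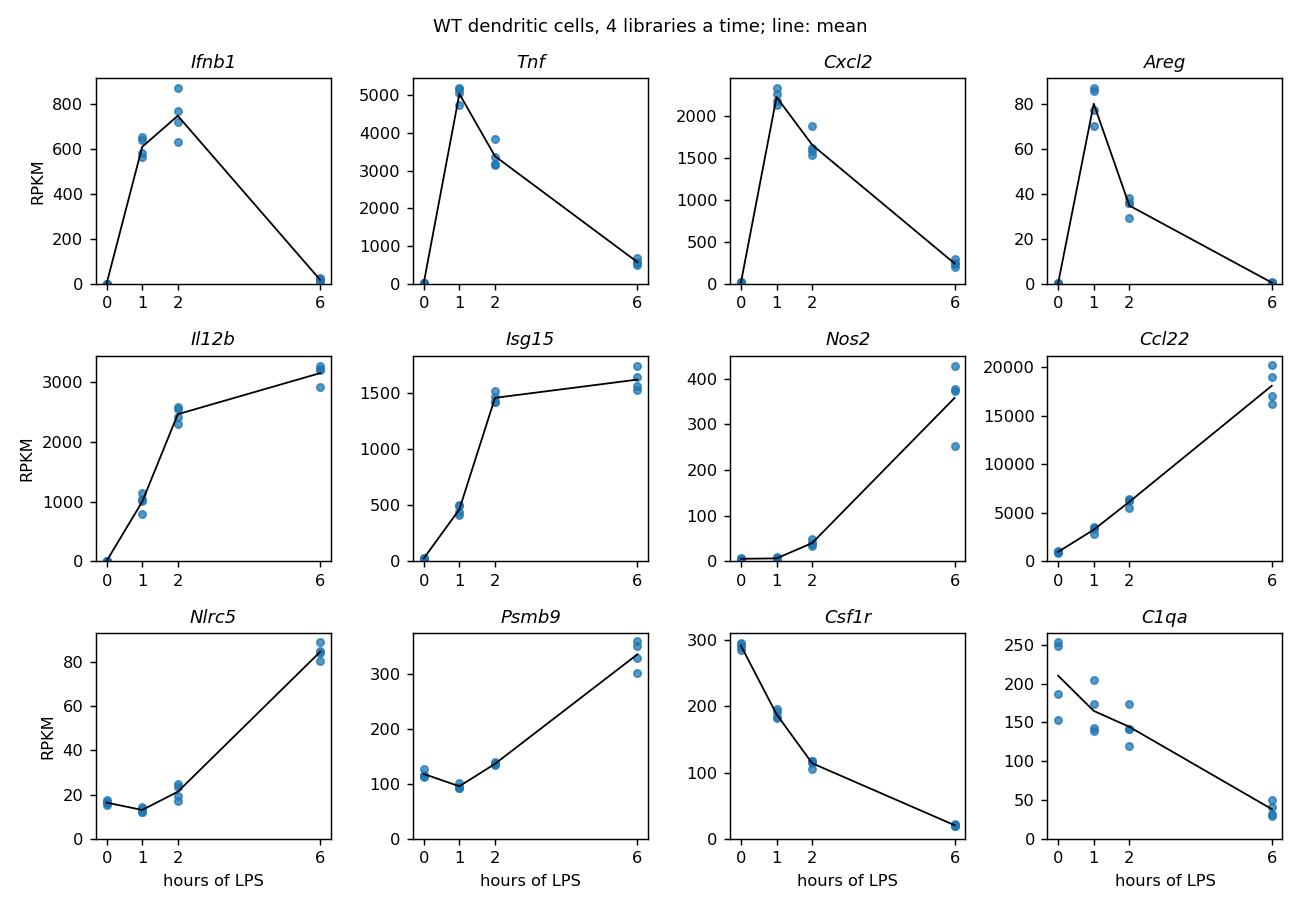
RPKM in each of the 4 WT libraries (points) and their mean (line) at 0, 1, 2 and 6 h of LPS for 12 genes. Ifnb1, Tnf, Cxcl2 and Areg are lower at 6 h than at 2 h, with Areg near its 0 h level and the others still above theirs. Il12b and Isg15 hold, Nos2, Ccl22, Nlrc5 and Psmb9 are highest at 6 h, and Csf1r and C1qa are lowest at 6 h.

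Of the 21 NF-kappaB subunit and feedback genes, 5 resolved, 8 were sustained and 8 had neither pattern; 13 were lower and 7 higher at 6 h, with a median of -0.28. Among nuclear IkB genes Bcl3 rose, by 0.72 ± 0.088, while Nfkbiz and Nfkbid fell. Nfkbiz measured 80.5, 90.8, 85.3 and 78.2 RPKM at 6 h, against 292, 325, 311 and 289.8 RPKM at 2 h and changed by -1.86 ± 0.083 (limma adjusted p = 1.33e-12), and Nfkbid changed by -1.75 ± 0.069. Tnfaip3, which encodes the ubiquitin-editing inhibitor A20, measured 188, 203, 194 and 169 RPKM at 6 h, against 452, 478, 477 and 462 RPKM at 2 h, a change of -1.31 ± 0.064 (limma adjusted p = 3.93e-12), with 36.2% of its rise left. Zc3h12a, the RNase regnase-1 that cuts cytokine mRNA, and its relative Zc3h12c changed by -1.10 ± 0.056 and -1.77 ± 0.071. Nfkbia, which encodes IkB alpha, was at 912 ± 35.8 RPKM at 6 h and 1100 ± 54.8 RPKM at 2 h (SD, n = 4 each), a change of -0.27 ± 0.062 (limma adjusted p = 0.000658), and kept 78.7% of its rise; after quantile normalization this small change was 0.03295, with the other sign. Subunits of the noncanonical arm were higher, Relb by 0.61 ± 0.094 and Nfkb2 by 0.27 ± 0.063, while Nfkb1, Rela and Rel were lower, with changes of -0.53 ± 0.057, -0.40 ± 0.048 and -0.37 ± 0.062. Calls of Nfkbiz, Tnfaip3, Zc3h12a, Nfkbia, Nfkb1, Nfkb2 and Rel were lost in the fit over all 32 libraries (adjusted p from 0.0526 to 0.635).

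Of 21 immediate early transcription factor genes tested, 14 were lower and 4 higher, with a median of -0.544. Fos measured 3.55, 4.69, 4.60 and 2.78 RPKM at 6 h, against 20.2, 21.2, 20.8 and 18.8 RPKM at 2 h, below its 0 h mean of 35.7 RPKM at both times; its change was -2.26 ± 0.13 (limma adjusted p = 3.96e-11). Egr1, at 67.2 RPKM at 1 h, was at 0.829 to 1.15 RPKM at 6 h against 4.12 to 4.56 RPKM at 2 h, a change of -1.74 ± 0.14 (limma adjusted p = 2.57e-09). Maff, a small Maf factor, changed by -2.58 ± 0.052. Zfp36, which encodes the mRNA destabilising protein tristetraprolin, had 128 ± 13.7 RPKM at 6 h and 115 ± 12.01 RPKM at 2 h (adjusted p = 0.184), and Junb 201 ± 13.0 RPKM at 6 h and 215 ± 18.1 RPKM at 2 h (adjusted p = 0.346), neither passing. Dusp1, a MAP kinase phosphatase, was at 67.7 to 70.4 RPKM at 6 h against 44.2 to 56.8 RPKM at 2 h, a change of 0.48 ± 0.082 (limma adjusted p = 3.7e-05); in the fit over all 32 libraries it was not called (adjusted p = 0.369). Ier3, in the same list, was higher by 1.24 ± 0.12.

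Among the other resolving genes were receptors for microbes and parts of cell death and redox pathways. Cd14, the LPS co-receptor, measured 219.5, 258, 259.8 and 180.0 RPKM at 6 h, against 798, 873, 841 and 727 RPKM at 2 h and changed by -1.83 ± 0.13 (limma adjusted p = 5.8e-10); Tlr2 and the lectin receptor Clec4e changed by -1.68 ± 0.11 and -1.20 ± 0.11. The inflammasome sensor Nlrp3 measured 36.5 to 41.4 RPKM at 6 h against 97.5 to 122 RPKM at 2 h, and its 6 h mean of 38.8 RPKM lay next to its 0 h mean of 38.4 RPKM. The death genes Bcl2l11 (BIM) and Pmaip1 (NOXA) and the survival gene Bcl2l1 (BCL-XL) fell, with changes of -1.30 ± 0.074, -1.52 ± 0.094 and -1.29 ± 0.06. The NRF2 targets Txnrd1, thioredoxin reductase, and Slc7a11, the cystine carrier, fell by 1.82 and 1.59 log2, and 9 of the 13 redox genes tested were lower, against 33.1% of all genes. Clec4e was not called in the fit over all 32 libraries (adjusted p = 0.102).

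Across the 160 resolving genes a median of 11.2% of the 2 h rise in RPKM was left at 6 h, with quartiles of 1.6% and 23.3%. In 35 genes none of the rise was left, in 39 up to 10%, in 49 between 10% and 25% and in 37 above 25%. Of the 160, 133 were already raised 2-fold or more at 1 h. At 6 h, 102 were still called above 0 h and 24 were called below it; over all genes 21.1% were called above 0 h at 6 h and 67.8% below it. Of the 160, 19 passed the filter on low values through 1 group only. The shares left and the calls against 0 h are given for libraries as deposited only. Between 0 h and 2 h the median gene changed by -0.675 log2 as deposited and by 0.0549 after median-of-ratios scaling. How far these genes returned to 0 h therefore depends on the scaling.

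The sustained genes included interleukin-12 p40, interferon-stimulated genes and the ligands Cd80 and Cd274. Il12b, which encodes p40 (mm9 chromosome 11, 44213565 to 44227519), measured 2912, 3212, 3207 and 3275 RPKM at 6 h, against 2299, 2424, 2582 and 2547 RPKM at 2 h, higher in all 6 h libraries, with a small change of 0.36 ± 0.10 (limma adjusted p = 0.00396) and a 0 h mean of 3.43 RPKM. Isg15, a ubiquitin-like antiviral protein with a run of ISRE-type matches upstream, measured 1646, 1525, 1562 and 1744 RPKM at 6 h, against 1521, 1422, 1419 and 1465 RPKM at 2 h; its change of 0.15 ± 0.077 (limma adjusted p = 0.0835) did not pass. It passed after quantile normalization, at 0.48 (adjusted p = 0.000216), and in a fit of the 8 libraries alone (adjusted p = 0.0346). Ifit2 had 542 ± 45.6 RPKM at 6 h and 541 ± 10.4 RPKM at 2 h (SD, n = 4 each; adjusted p = 0.994). Mx1 had 644 ± 49.5 RPKM at 6 h and 575 ± 40.3 RPKM at 2 h (adjusted p = 0.201) and Oasl1 365 ± 12.7 RPKM at 6 h and 410.2 ± 26.4 RPKM at 2 h (adjusted p = 0.282). Mx1 passed after quantile normalization, at 0.37 (adjusted p = 0.00946), and Oasl1 in the fit of the 8 libraries alone, at -0.17 (adjusted p = 0.0189). Cmpk2, a nucleotide kinase induced by interferon, had 392 ± 40.2 RPKM at 6 h and 494 ± 34.5 RPKM at 2 h, a change of -0.34 ± 0.14 (limma adjusted p = 0.0388). The call was lost without 2 h replicate 1, 3 or 4 or 6 h replicate 1, 3 or 4 (-0.2768 to -0.3468), after quantile normalization (-0.09423), without the filter or the intensity trend, and in the fit over all 32 libraries (adjusted p = 0.838). Ptgs2, which encodes cyclooxygenase 2, had 297 ± 51.3 RPKM at 6 h and 317 ± 36.7 RPKM at 2 h (adjusted p = 0.529).

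The costimulatory gene Cd80 and the checkpoint ligand Cd274 (PD-L1) rose slightly, by 0.48 ± 0.063 and 0.38 ± 0.075, with Cd80 at 251 to 292 RPKM at 6 h against 182 to 202 RPKM at 2 h. Il27, the p28 subunit of interleukin-27, was slightly lower, with a change of -0.29 ± 0.11 that was lost without 6 h replicate 4, 2 h replicate 2 or 2 h replicate 3 and after quantile normalization. Irf1 changed by -0.43 ± 0.07. The anti-inflammatory cytokine Il10 stayed low in level, at 2.73, 2.63, 2.52 and 2.52 RPKM at 6 h against 1.95, 2.52, 2.48 and 1.53 RPKM at 2 h, and did not pass (adjusted p = 0.154). Of the 238 sustained genes, 117 were raised 2-fold or more at 1 h already, and 122 had groups that did not overlap between 6 h and 2 h. Groups did not overlap for 70.0% of all tested genes. The limit of 0.5 log2 that defines this pattern by itself makes overlap more frequent. Calls of Il12b, Cd80, Cd274, Il27 and Irf1 were lost in the fit over all 32 libraries (adjusted p from 0.321 to 0.864).

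The genes rising further included interferon-inducible genes and the gene of the enzyme that makes nitric oxide. Ms4a4c, a membrane protein of the MS4A family (mm9 chromosome 19, 11482151 to 11501736), measured 56.7, 56.8, 62.5 and 59.2 RPKM at 6 h, against 2.92, 3.33, 3.60 and 5.47 RPKM at 2 h, a change of 3.81 ± 0.19 (limma adjusted p = 5.46e-12). Iigp1, an immunity-related GTPase, measured 39.2, 32.4, 38.9 and 28.8 RPKM at 6 h, against 2.80, 2.37, 3.82 and 3.12 RPKM at 2 h and changed by 3.33 ± 0.13 (limma adjusted p = 2.83e-13). Nos2, inducible nitric oxide synthase (mm9 chromosome 11, 78734361 to 78773626), measured 373, 429, 377 and 254 RPKM at 6 h, against 48.4, 37.6, 40.8 and 33.1 RPKM at 2 h. The 6 h libraries spread from 254 to 429 RPKM and all lay above the 2 h libraries, with a change of 3.14 ± 0.17 (limma adjusted p = 1.01e-11). Irf7, the interferon regulatory factor that drives the interferon alpha genes, measured 496, 439, 523 and 569 RPKM at 6 h, against 113, 116, 122 and 125 RPKM at 2 h, a change of 2.08 ± 0.072 (limma adjusted p = 5.5e-14), while the 4 interferon alpha genes named above fell. Phf11, Kctd14 and Hmgn3, a nucleosome-binding protein, rose by 2.73 ± 0.15, 2.72 ± 0.21 and 2.67 ± 0.17.

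Interferon signalling and its targets split by gene. Stat2, not called in the fit over all 32 libraries (adjusted p = 0.0986), and the kinase Tyk2, which act below the interferon receptor, changed by 0.89 ± 0.06 and 1.01 ± 0.054. Of 30 antiviral interferon-stimulated genes, 17 were higher, 7 lower and 6 not called, with a median of 0.513. Ifi44, Oasl2 and Oas3 rose by 2.85 ± 0.16, 1.8 ± 0.094 and 1.92 ± 0.065, while the RNA sensor Ifih1 (MDA5), Ifit1 and Rsad2 (viperin) fell by 1.34, 1.14 and 0.70. Ifit1 measured 363, 407, 378 and 343 RPKM at 6 h, against 821, 802, 810.3 and 861 RPKM at 2 h, whereas Ifit3, a close neighbour on chromosome 19, measured 178, 201, 188 and 176 RPKM at 6 h, against 118, 116, 137 and 162 RPKM at 2 h, a change of 0.49 ± 0.19 (limma adjusted p = 0.0266) that was lost after median-of-ratios scaling, without the filter and without 6 h replicate 2, 2 h replicate 1 or 2 h replicate 2 (0.43 to 0.45). Of 13 guanylate binding proteins and immunity GTPases, 9 were higher and 2 lower, with a median of 0.939, the highest median of the 23 pathway lists as deposited. Gbp2 measured 521, 510.3, 517 and 529 RPKM at 6 h, against 164, 137, 160.4 and 181 RPKM at 2 h, a change of 1.70 ± 0.078 (limma adjusted p = 1.76e-12), and Gbp4 and Gbp9 rose by 2.29 ± 0.10 and 2.39 ± 0.12; the Gbp genes of chromosome 5 are close copies that can share reads. Ifih1, Ifit1, Rsad2, Oasl2 and Ifit3 were not called in the fit over all 32 libraries (adjusted p from 0.051 to 0.702).

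Several maturation genes rose. Cd40, the receptor for T cell help, measured 557, 544, 596 and 629 RPKM at 6 h, against 202, 181, 257 and 261 RPKM at 2 h, a change of 1.38 ± 0.13 (limma adjusted p = 2.39e-08). Ccr7, the receptor that guides dendritic cells to lymph nodes, measured 1306, 1213, 1362 and 1454 RPKM at 6 h, against 429, 431, 499 and 440.2 RPKM at 2 h and changed by 1.57 ± 0.088 (limma adjusted p = 2.34e-11); its level at 1 h, 642 RPKM, was above that at 2 h. Cd83, a maturation marker, and Fscn1, the actin-bundling protein fascin, changed by 1.15 ± 0.074 and 1.29 ± 0.12. Il15 and its receptor chain Il15ra changed by 1.51 ± 0.13 and 1.52 ± 0.10. Of 17 costimulation and maturation genes 11 were higher and 4 lower, with a median of 0.564; Cd44, the hyaluronan receptor, fell by 1.44 and Tnfsf4 (OX40L) by 0.72. In the fit over all 32 libraries Tnfsf4 was not called (adjusted p = 0.451).

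Ccl22 and Ccl5 had the highest chemokine levels at 6 h and rose. Ccl22, which attracts CCR4-bearing T cells, measured 18960, 16210, 17020 and 20210 RPKM at 6 h, against 6231, 5510, 6453 and 6341 RPKM at 2 h, and Ccl5 (RANTES) measured 12620, 11980, 13180 and 13280 RPKM at 6 h, against 4004, 3686, 4295 and 4136 RPKM at 2 h. The changes were 1.56 ± 0.087 (limma adjusted p = 2.15e-11) and 1.66 ± 0.095 (limma adjusted p = 2.87e-11). Il12a, the p35 partner of p40 in interleukin-12, measured 16.2, 14.9, 15.6 and 15.7 RPKM at 6 h, against 2.84, 2.69, 3.26 and 4.19 RPKM at 2 h, a change of 2.12 ± 0.11 (limma adjusted p = 8.23e-12) and was far below p40 in RPKM at both times. Irg1, the enzyme gene for itaconate, fell by 0.99 and was not called in the fit over all 32 libraries (adjusted p = 0.429). Ebi3, the partner of p28 in interleukin-27, rose by 1.17 ± 0.051. The enzymes Ptges, prostaglandin E synthase, and Hdc, which makes histamine, rose by 1.63 ± 0.10 and 1.23 ± 0.11. Of the 96 genes rising further, 21 were raised 2-fold or more at 1 h. In the fit over all 32 libraries Cd40, Fscn1, Ccl5 and Hdc were not called (adjusted p from 0.0535 to 0.195).

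The late risers held 5 of the 16 class I antigen presentation genes tested. Nlrc5, the transactivator of class I genes (mm9 chromosome 8, 96996663 to 97051172), measured 80.4, 84.3, 89.1 and 84.8 RPKM at 6 h, against 19.5, 17.1, 25.02 and 23.6 RPKM at 2 h, a change of 1.98 ± 0.094 (limma adjusted p = 2.55e-12), with a 0 h mean of 16.4 RPKM. Psmb9, the LMP2 subunit of the immunoproteasome, measured 329, 302, 350.3 and 359.9 RPKM at 6 h, against 139, 137, 134 and 136 RPKM at 2 h, a change of 1.29 ± 0.055 (limma adjusted p = 6.16e-13), and Psmb10 (MECL1) and Psmb8 (LMP7) changed by 1.14 ± 0.076 and 0.80 ± 0.04. The proteasome activator genes Psme1 and Psme2 rose by 0.98 ± 0.055 and 1.21 ± 0.07. The peptide transporter genes Tap1 and Tap2 rose by 0.73 ± 0.046 and 1.09 ± 0.05 and Tapbp, which encodes tapasin, by 0.99 ± 0.047. Tap2 measured 125, 117, 126 and 131 RPKM at 6 h, against 57.0, 58.5, 59.6 and 58.5 RPKM at 2 h. As deposited its 2 h level lay below the 0 h mean of 71.7 RPKM, a change of -0.29 log2. The median gene changed by -0.675 log2 between these times, so the place of Tap2 against 0 h depends on the scaling.

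The heavy chain and B2m, abundant from the start, moved less. B2m, the light chain of class I, measured 4237, 3998, 4094 and 3995 RPKM at 6 h, against 3324, 3155, 3116 and 3011 RPKM at 2 h, a change of 0.37 ± 0.052 (limma adjusted p = 3.12e-06), and the heavy chain gene H2-K1 changed by 0.32 ± 0.046. In all, 14 of the 16 class I genes tested were higher and 1 lower, the chaperone Calr, by 0.37; the median was 0.89. Psmb9, Psmb10 and Tap2 were late risers as deposited but in no pattern after median-of-ratios scaling, and Nlrc5 and Psme2 counted as rising further there. The change between 2 h and 6 h had the same sign in both. Of 12 class II genes 3 were higher and 5 lower, with a median of -0.0747 as deposited and 0.0624 after quantile normalization, against 45.1% higher and 33.1% lower over all genes. H2-Aa had 3889 ± 253 RPKM at 6 h and 3894 ± 295 RPKM at 2 h (adjusted p = 0.991). Cd74, the invariant chain, had 8038 ± 526 RPKM at 6 h and 8624 ± 342 RPKM at 2 h (adjusted p = 0.193). It was called lower after median-of-ratios scaling, at -0.20, and after quantile normalization, at -0.75. The class II transactivator Ciita rose by 0.90 ± 0.11 and the exchange factor H2-DMa fell by 0.55.

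**Figure D3:**
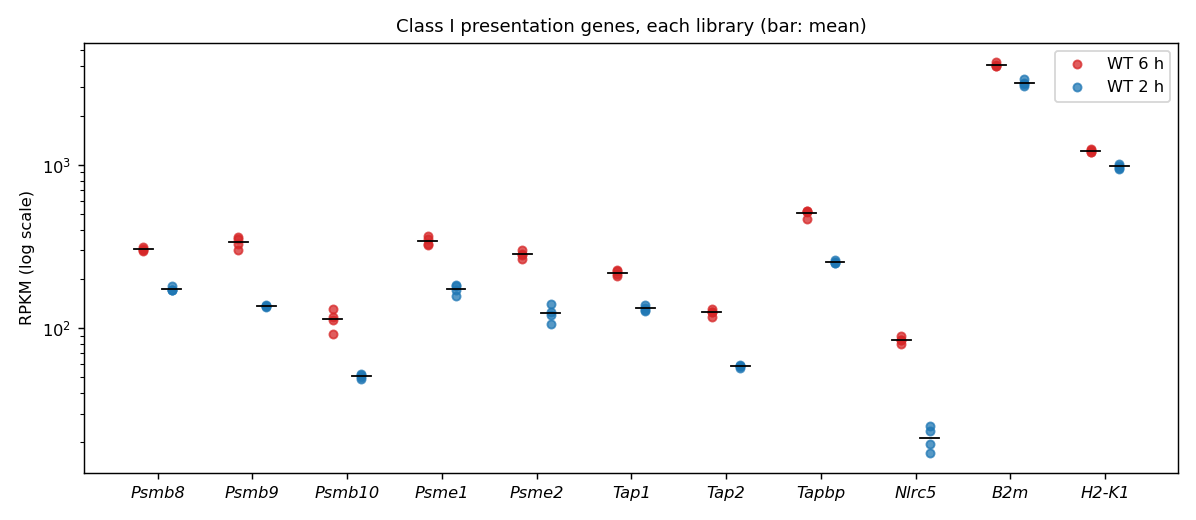
RPKM (log axis) of class I presentation genes in each of the 4 libraries at 6 h (left of each pair) and at 2 h (right), with bars at the means. All 4 values at 6 h lie above all 4 at 2 h for each of the 11 genes.

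Ccr4, the receptor for CCL22 and CCL17 (mm9 chromosome 9, 114399434 to 114405662), measured 8.12, 6.84, 6.99 and 7.32 RPKM at 6 h, against 0.139, 0.316, 0.245 and 0.166 RPKM at 2 h. It was under 1 RPKM in all 2 h libraries and passed the filter through the 6 h libraries alone; its change was 3.45 ± 0.11 (limma adjusted p = 2.42e-14). Bbx, a HMG-box protein, measured 34.0, 35.5, 35.6 and 31.2 RPKM at 6 h, against 3.04, 3.58, 3.14 and 2.93 RPKM at 2 h, a change of 3.24 ± 0.07 (limma adjusted p = 2.63e-16). Il12rb1, a receptor chain for interleukins 12 and 23, changed by 2.49 ± 0.13, from a low mean of 0.263 RPKM at 2 h to 3.81 RPKM at 6 h. Cnn3, the actin-binding calponin 3, changed by 2.26 ± 0.10, and Nlgn2, neuroligin 2, by 3.11 ± 0.13. Of the 171 late risers, 35 passed the filter on low values through 1 group only. The same held for 64 of the 237 genes falling further and 27 of the 173 late fallers. Bst2, the antiviral tetherin gene that is also in the plasmacytoid marker list, rose by 1.29 ± 0.066. Mlkl, an effector of necroptosis, rose by 1.88 ± 0.12, and the redox protein Txn1 by 1.01 ± 0.055. Under median-of-ratios scaling Ccr4, Bbx and Il12rb1 remained late risers.

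Recovering genes were low at 2 h. Arc, an early response gene, measured 10.3, 6.52, 8.98 and 12.3 RPKM at 6 h, against 1.09, 1.13, 1.42 and 0.808 RPKM at 2 h, and its 6 h level was near the 0 h mean of 10.8 RPKM; the change was 2.62 ± 0.15 (limma adjusted p = 3.77e-11). Abcg1, a cholesterol exporter, measured 77.7, 69.9, 75.2 and 91.6 RPKM at 6 h, against 19.4, 19.0, 20.6 and 26.2 RPKM at 2 h, with 97.8 RPKM at 0 h, a change of 1.86 ± 0.10 (limma adjusted p = 1.57e-11). Ticam2, the TRAM adaptor that couples TLR4 to TRIF, measured 14.0, 17.4, 17.1 and 15.4 RPKM at 6 h, against 5.68, 4.19, 4.69 and 5.22 RPKM at 2 h, a change of 1.60 ± 0.086 (limma adjusted p = 1.28e-11), with 23.7 RPKM at 0 h. Ier3 rose by 1.24 ± 0.12. These 4 were recovering under median-of-ratios scaling as well.

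Some recovering genes exceeded their 0 h level. Parp11, an ADP-ribosyltransferase, measured 25.2, 23.3, 25.5 and 26.7 RPKM at 6 h, against 2.48, 1.35, 2.52 and 2.82 RPKM at 2 h with 6.09 RPKM at 0 h. Its change was 3.23 ± 0.13 (limma adjusted p = 4.12e-13). Pfkfb3, which drives glycolysis, rose by 1.89 ± 0.092 and the stress factor Ddit3 (CHOP) by 1.29 ± 0.12. Mcl1, a survival gene, fell just short of the pattern: it was at 195 to 214 RPKM at 6 h against 98.1 to 115 RPKM at 2 h, a change of 0.94 ± 0.06 (limma adjusted p = 1.12e-10), with 230.3 RPKM at 0 h. Of the 503 recovering genes, 362 were still called below 0 h at 6 h, 36 above it, and 250 lay within 0.5 log2 of it, with libraries as deposited. Among all tested genes 67.8% were called below 0 h at 6 h and 21.1% above it. Through 1 group only, 80 of the 503 passed the filter. Parp11, Pfkfb3 and Ddit3 were in no pattern after median-of-ratios scaling.

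The genes that stayed low included the transcription factor genes Cebpa, Myc and Runx1. Cebpa, a myeloid transcription factor, measured 1.09, 1.05, 1.25 and 1.17 RPKM at 6 h, against 1.42, 1.39, 1.94 and 2.37 RPKM at 2 h, with a 0 h mean of 34.4 RPKM. Myc measured 0.936, 2.05, 1.35 and 1.51 RPKM at 6 h, against 1.43, 2.52, 1.68 and 1.43 RPKM at 2 h, with 17.1 RPKM at 0 h. The step from 2 h did not pass for Myc (adjusted p = 0.237) and was -0.45 ± 0.13 (limma adjusted p = 0.00320) for Cebpa. Dusp6, a phosphatase for ERK, had 2.60 RPKM at 6 h and 3.70 RPKM at 2 h, with 28.9 RPKM at 0 h. Runx1 was at 2.14 RPKM at 6 h and 3.13 RPKM at 2 h, with 16.2 RPKM at 0 h. P2ry6, a nucleotide receptor, measured 2.57, 2.06, 1.46 and 2.78 RPKM at 6 h, against 3.12, 3.01, 3.01 and 2.95 RPKM at 2 h, with 45.6 RPKM at 0 h. Its change of -0.40 ± 0.11 (limma adjusted p = 0.00324) was -0.25 without 6 h replicate 3 and was not called in the fit over all 32 libraries (adjusted p = 0.547). Of Cebpa, Myc, Dusp6 and Runx1 only Myc kept the pattern under median-of-ratios scaling. Cebpa, Dusp6 and Runx1, all slightly lower at 6 h, were not called in the fit over all 32 libraries (adjusted p from 0.268 to 0.566).

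Chemokine and uptake receptor genes fell in 13 of 16 cases, with 3 higher and a median of -1.36. Csf1r, the M-CSF receptor, measured 19.9, 19.3, 22.2 and 20.6 RPKM at 6 h, against 106, 117, 115 and 118 RPKM at 2 h, a change of -2.45 ± 0.049 (limma adjusted p = 1.03e-16). Mrc1, the mannose receptor, measured 11.8, 14.4, 12.3 and 9.68 RPKM at 6 h, against 68.2, 78.2, 57.9 and 63.2 RPKM at 2 h, a change of -2.43 ± 0.11 (limma adjusted p = 1.54e-12). Fcgr2b, the inhibitory Fc receptor, Itgam (CD11b) and the scavenger receptor Cd36 fell by 2.04, 1.57 and 1.32 log2. The lectin gene Clec10a measured 9.27, 14.9, 11.3 and 5.14 RPKM at 6 h, against 104, 126, 93.5 and 87.8 RPKM at 2 h, a change of -3.36 ± 0.22 (limma adjusted p = 1.3e-10). Cd209a, a C-type lectin, changed by -2.52 ± 0.23, and outside this list Kctd12, Chn2, a Rac GTPase-activating protein, and St6gal1, a sialyltransferase, changed by -3.82 ± 0.068, -3.06 ± 0.15 and -2.70 ± 0.085. Chn2 was under 1 RPKM in all 6 h libraries and passed the filter through the 2 h libraries alone. The complement genes C1qa, C1qb and C1qc fell by 1.92, 1.43 and 1.5. Summed macrophage markers were lower too, as given above: 7 of the 10 in that list were lower and 2 higher, Fcgr1 by 0.64 ± 0.062 and Mertk by 0.67 ± 0.079. The part of cell composition in these falls was not tested.

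Ccr2, the receptor for CCL2, varied between libraries: it measured 9.22, 19.3, 6.995 and 23.1 RPKM at 6 h, against 47.2, 73.5, 35.8 and 73.5 RPKM at 2 h, with replicates 2 and 4 high at both times, and changed by -2.03 ± 0.31 (limma adjusted p = 9.28e-06). Exceptions to the direction were Csf3r, the G-CSF receptor, at 0.88 ± 0.11, Fcer1g, the common Fc receptor chain, at 0.37 ± 0.054, and Cxcr4 at 0.61 ± 0.18, which was not called in the fit over all 32 libraries (adjusted p = 0.229). Tlr4 itself was at 4.82 to 5.53 RPKM at 6 h against 9.51 to 14.4 RPKM at 2 h, a change of -1.05 ± 0.1 (limma adjusted p = 2.53e-08), and the transcription factor gene Pparg fell by 2.58. Itgax (CD11c) fell by 0.89 and was the 1 lower among the 9 dendritic cell markers as deposited. In that list 6 were higher, against 45.1% higher and 33.1% lower over all genes.

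Several genes of lipid mediators fell. Tbxas1, thromboxane synthase, measured 4.48, 3.96, 3.78 and 4.93 RPKM at 6 h, against 44.0, 45.5, 38.4 and 49.7 RPKM at 2 h, a change of -3.23 ± 0.079 (limma adjusted p = 1.22e-15). Ptgs1, the constitutive cyclooxygenase, measured 0.727, 1.01, 0.676 and 0.899 RPKM at 6 h, against 8.29, 6.93, 5.39 and 6.57 RPKM at 2 h, a change of -2.45 ± 0.15 (limma adjusted p = 8.69e-11). Alox5, the 5-lipoxygenase that makes leukotrienes, and Ltb4r1, a leukotriene B4 receptor, fell by 2.24 and 2.62. Daglb, a lipase that makes an endocannabinoid, measured 0.539, 0.544, 0.857 and 0.564 RPKM at 6 h, against 11.1, 11.6, 9.05 and 12.4 RPKM at 2 h, a change of -3.36 ± 0.097 (limma adjusted p = 8.48e-15). Daglb was under 1 RPKM in all 6 h libraries and passed the filter through the 2 h libraries alone. Set beside these, Ptgs2 did not pass the test and Ptges rose, as described above.

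Cell cycle genes were lower at 6 h in 21 of 24 cases, with 2 higher and a median of -0.849. Rrm2, a ribonucleotide reductase subunit, was at 1.08 to 1.84 RPKM at 6 h against 6.76 to 8.84 RPKM at 2 h, a change of -1.996 ± 0.15 (limma adjusted p = 1.08e-09), and Ccnb2, cyclin B2, changed by -2.03 ± 0.11. The proliferation marker Mki67 and Pcna fell by 1.47 and 1.22. Those higher were Ccne1, cyclin E1, at 1.26 ± 0.13, and Tyms at 1.08 ± 0.11. Of 14 ribosome biogenesis genes 12 were lower and none higher, among them Nop58, a box C/D snoRNP protein, at 2.03 to 2.88 RPKM at 6 h against 15.96 to 17.9 RPKM at 2 h, a change of -2.57 ± 0.089 (limma adjusted p = 5.19e-14).

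Cholesterol synthesis genes were lower in 14 of 20 cases, with a median of -0.697. Dhcr7, a late enzyme of the pathway, fell further, by 1.72 log2, and Fdft1, squalene synthase, measured 10.2, 9.81, 9.75 and 11.9 RPKM at 6 h, against 37.3, 29.7, 28.9 and 29.3 RPKM at 2 h, a change of -1.54 ± 0.079 (limma adjusted p = 7.36e-12). Dhcr7 was under 1 RPKM in all 6 h libraries and passed the filter through the 2 h libraries alone. Abcg1, in the same list, was the 1 member that rose 2-fold or more. Glycolysis genes were lower in 14 of 21 cases, among them Pkm2 by 1.05 and Gpi1 by 1.09, with Pfkfb3 rising as given above. Gapdh, at 7.87 RPKM at 6 h and 8.83 RPKM at 2 h, and Eno1, at 8.13 and 13.7 RPKM, lay far below Aldoa, at 520 and 767 RPKM. The Eno1 entry covers only mm9 chromosome 4, 149611306 to 149611432, and its 6 h values overlapped its 2 h values. Why the Gapdh and Eno1 entries were low was not tested, so they cannot be read as the level of the gene. None of the 24 respiratory chain genes moved 2-fold or more: 15 of 24 were lower, with a median of -0.219, against 33.1% lower over all genes. Lysosome genes were lower in 13 of 19 cases, against the same 33.1%, with Hexa, a subunit of hexosaminidase, falling by 1.18. The unfolded protein list had 6 of 18 higher, against 45.1% of all genes, and 3 lower, and 4 higher and 5 lower after median-of-ratios scaling.

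**Figure D4:**
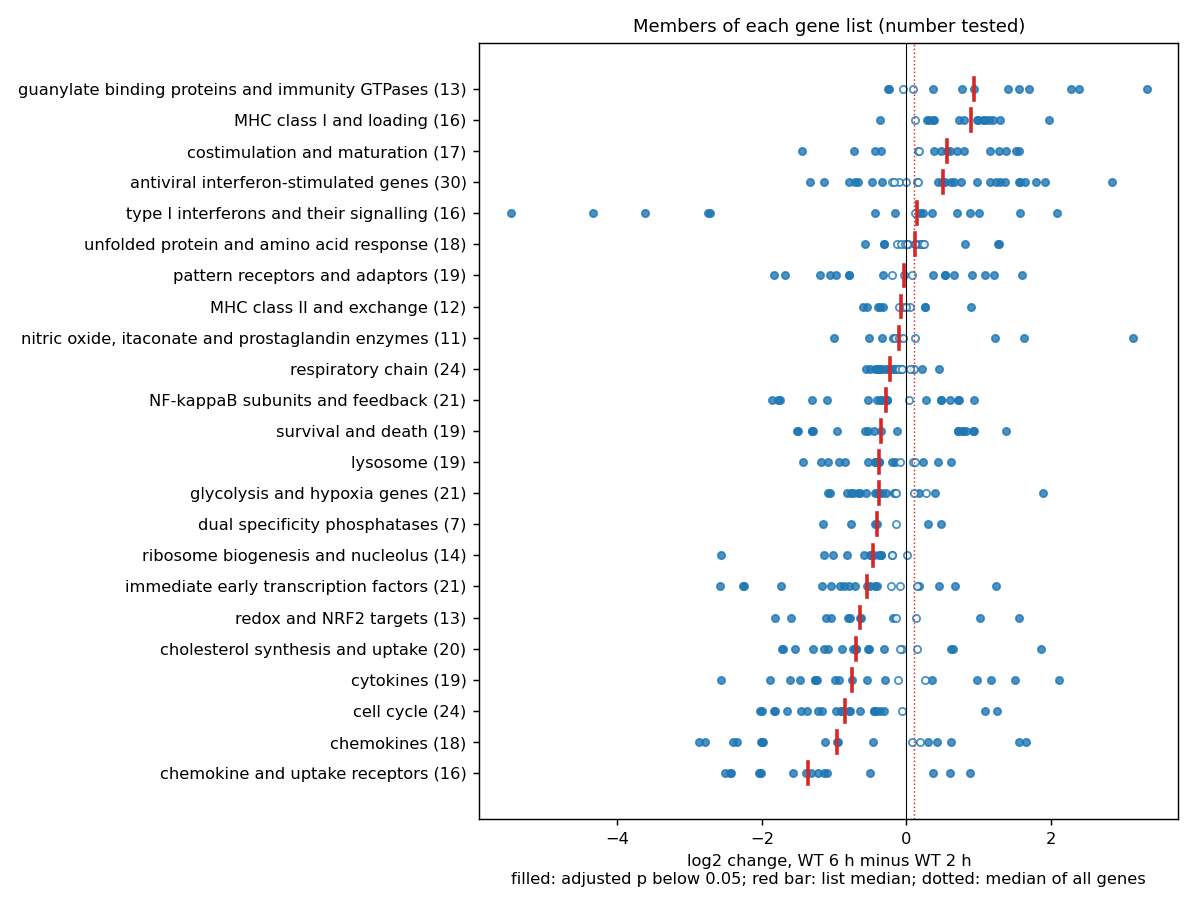
Log2 change between WT 6 h and WT 2 h for each tested member of 23 gene lists (number tested in brackets); filled points passed the test, red bars mark list medians and the dotted line the median of all genes. List medians run from 0.939 for guanylate binding proteins and immunity GTPases to -1.36 for chemokine and uptake receptors.

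The same step was set beside that in dKO cells. With all dKO libraries as labelled, no gene was called between dKO 6 h and dKO 2 h by limma, against 3092 genes at an unadjusted p below 0.05, and libraries within a group lay near different WT times. The libraries labelled dKO 2 h replicates 2 and 4 and dKO 6 h replicate 4 were among the 5 that correlated best with another time in WT (correlation 0.963 to 0.975 with that time against 0.79 to 0.939 with their own). Without these 5 libraries, 2 were left at dKO 2 h and 3 at dKO 6 h, and 3932 genes were higher (40.0%) and 3087 lower (31.4%).

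With all libraries as labelled, 108 of the 160 resolving genes had a negative log2 change in dKO, with a median of -0.213 against -1.57 in WT, and all 96 genes rising further had a positive one, with a median of 1.44 against 1.46. Without the 5 libraries 159 of the 160 resolving genes were lower, 158 of them called, with a median of -1.44, and Ifna1 was listed at 0 at both times. All 96 genes rising further were higher, 95 called, with a median of 1.74. Likewise 370 of the 503 recovering genes were higher with all libraries and 502 without the 5, and 170 and 171 of the 171 late risers. The 5 libraries were left out for their likeness to another WT time, so likeness to WT in those that remain was partly set by that choice and is no independent support. Ifnb1, Tnf, Nos2 and Nlrc5 changed by -5.27, -2.30, 3.46 and 2.63 log2 in dKO without the 5, against -5.47, -2.56, 3.14 and 1.98 in WT.

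The change itself differed between dKO and WT for 47 genes (0.478%) with all 32 libraries and for 1009 (10.3%) without the 5. Ifna1 averaged 0 RPKM in dKO at 6 h and at 2 h, while in WT it measured 0, 0.0887, 0 and 0.304 RPKM at 6 h, against 3.74, 3.25, 2.48 and 4.66 RPKM at 2 h; the difference in the change was 2.75 log2 (limma adjusted p = 5.12e-08). Il2 averaged 0.277 RPKM in dKO at 6 h and 0.950 RPKM at 2 h, and its difference in the change was 2.40 (limma adjusted p = 0.0459), or 1.05 without the 5 (adjusted p = 0.0393). Psmb8, which encodes the deleted Lmp7, averaged 5.32 RPKM in dKO at 6 h and 5.39 RPKM at 2 h, against 304 and 174 RPKM in WT, with a difference in the change of -0.80 log2 (limma adjusted p = 0.0299). With Ifna1 at 0 and Psmb8 deleted in dKO, their differences restate the WT changes of -2.75 and 0.80 log2 with the sign turned. They say nothing further on the step in dKO. Psmb10, which encodes the deleted Mecl1, averaged 11.6 and 8.07 RPKM in dKO, against 113 and 50.6 RPKM in WT at the same times.

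**Figure D5:**
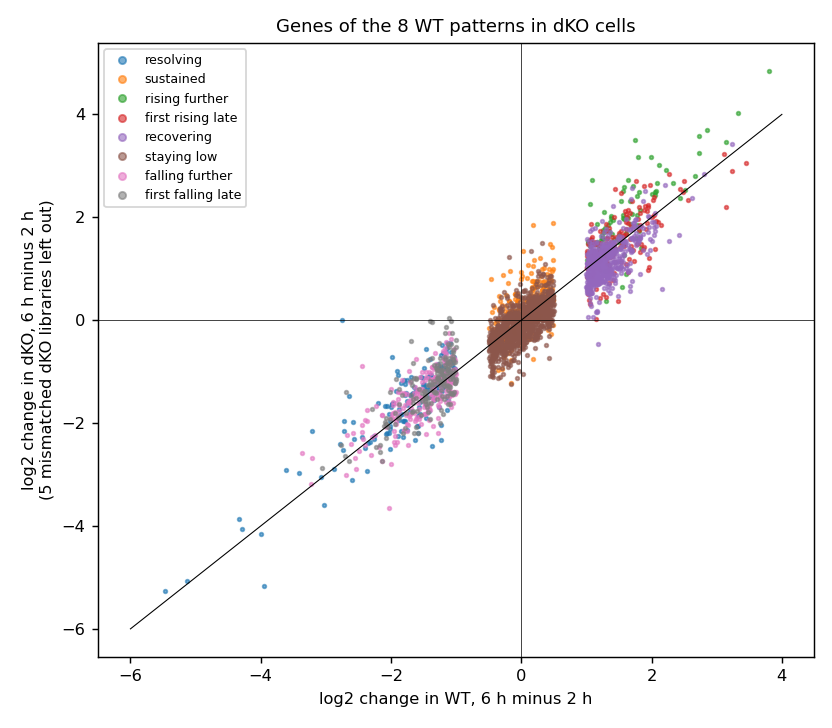
Log2 change between 6 h and 2 h in dKO cells, without the 5 libraries (vertical axis), against that in WT cells (horizontal axis) for the genes of the 8 patterns; the line marks equal change. With these libraries left out, 159 of the 160 resolving genes lie below 0 in dKO, with Ifna1 at 0, and all 171 late risers lie above 0.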

How the data were processed

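RNA of 32 libraries, 16 WT and 16 dKO, was extracted with Trizol and made into libraries with the TruSeq v2 kit from 4 µg of total RNA, per the labels' protocols. CASAVA 1.8.2 and the mm9 build are named in the submitters' processing notes. The authors deposited an RPKM value per gene and a second column of whole numbers, taken here as a signal of aligned bases and used for depth only. Reads per gene could not be recovered, so no count test was run and no counting interval is given. Entries for 92 ERCC spike-ins were left out, and 9 symbols stand on 23 entries.

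Genes at 1 RPKM or more in at least 4 of the 8 WT libraries at 6 h and 2 h were tested on log2(RPKM + 0.5) with limma 3.58.1 in R 4.3.3 (trend, 16 WT libraries, 4 group means, Benjamini-Hochberg adjustment over 9835 genes). The method was tested on simulated data. A step needed an adjusted p below 0.05 and 2-fold. dKO and its difference from WT were taken from a fit of all 32 libraries and one without the 5 that went against their labels. Replicate numbers pair the samples by the data: deviations of same-numbered libraries at 2 h and 6 h correlated at 0.146, 0.179, 0.236 and 0.245. Named genes were the 12 highest and 12 lowest among called genes with groups apart, 8 per pattern, up to 5 per list and any member a statement needed; uncharacterised loci were passed over and a few genes are not reported here. Members and lists were chosen with earlier results of these data known. Promoters are from RefSeq, matched by symbol. Alternatives covered the pseudocount, scaling, filter, fit, step size, replicate block and each library left out.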

Additional observations from a re-analysis of the deposited data

Results flagged for a closer look

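Among 358 groups of 4 libraries, 14 held 1 library far from the other 3, by a gap over 0.829 of the range; chance flags about 1 in 20 groups. At 6 h, Ifna4 replicate 3 was at 0.6291 RPKM (others 1.31 to 1.42), Csf1 replicate 3 at 22.72 (26.34 to 26.63), Tapbp replicate 2 at 468.4 (514.2 to 522.6), Mlkl replicate 2 at 38.48 (34.03 to 34.7) and Daglb replicate 3 at 0.8572 (0.5387 to 0.5641). At 2 h, Ifna4 replicate 3 was at 26.15 RPKM (34.9 to 36.5), Il2 replicate 1 at 6.44 (5.297 to 5.34), Tlr2 replicate 2 at 393.5 (298.2 to 312.7) and Egr3 replicate 2 at 4.54 (2.664 to 2.94). Also at 2 h, Ccr7 replicate 3 was at 499.3 RPKM (429.1 to 440.2), Psmb8 replicate 4 at 182.1 (170.6 to 172), Fdft1 replicate 1 at 37.28 (28.91 to 29.7), Myo1e replicate 3 at 38.18 (42.85 to 43.12) and Fcer1g replicate 3 at 654.7 (696.6 to 701.5).

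The change between 6 h and 2 h differed between dKO and WT, by the test of the difference with all 32 libraries, for Ifna1 (2.753 log2), Il2 (2.404) and Psmb8 (-0.7968) among the genes named here. Ifna1 was at 0 RPKM in dKO at both times and Psmb8 is deleted there. Their differences in that fit restate the WT change with its sign turned. The 5 libraries that went against their labels are in that fit; without them the differences were 2.753, 1.052 and -0.591, each with an adjusted p below 0.05.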

How the results depend on the processing

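The 7684 calls kept within 1.5 times under the pseudocounts, scalings, filters and left-out WT libraries tried. In the fit on all 32 libraries 4856 genes were called, 2831 higher and 2025 lower, and 43 of the 179 named genes lost their call. With the replicate block 7855 genes were called, 4528 higher and 3327 lower; among the named genes it gave Marcksl1 (0.1659) a call and changed no other call. Pattern counts moved more. With a pseudocount of 1, 319 genes recovered. After median-of-ratios scaling 288 resolved, 529 were sustained, 146 rose further, 251 recovered, 174 stayed low, 54 fell further and 482 first fell late. After quantile normalization 470 were sustained, 183 recovered, 230 stayed low, 94 fell further and 314 first fell late. Without the filter 1467 stayed low; with a filter at 5 RPKM 269 recovered, 390 stayed low and 123 fell further. With 1.5-fold steps 335 resolved, 389 were sustained, 236 rose further, 1581 recovered, 2215 stayed low, 864 fell further, 391 first rose late and 369 first fell late. Without the 5 dKO libraries 7019 genes were called in dKO and 1009 for the difference (47 with all 32 libraries); with all 32 libraries and a pseudocount of 0.1, 15 were called for the difference. The sign turned after quantile normalization for Ifit2 (0.2127), Oasl1 (0.04541), Ptgs2 (0.0251), Nfkbia (0.03295) and H2-Aa (0.1942). With 1 library left out, Ifit2 ran from -0.0441 to 0.05386, Ptgs2 from -0.1849 to 0.01883 and H2-Aa from -0.03868 to 0.04729, while total calls ran from 7465 to 7574. The cause of these shifts was not tested. Of 3207 checks of named genes 3126 gave the same call and sign, and 8 gained a call: Isg15 (0.4757), Mx1 (0.3726), Marcksl1 (0.3164) and Cd74 (-0.7459) after quantile normalization, Cd74 (-0.1965) after median-of-ratios scaling, Isg15 (0.151) and Oasl1 (-0.1663) in the 8 libraries alone, and Marcksl1 with the block. Levels under about 1 RPKM, as for Il2 and Ifna1 at 6 h, limit what can be read from their size.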
